A study of Mus musculus with 6 samples.

Results

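The 9 genes described here encode proteins of the tight junction, namely the scaffold Tjp1, the cingulin family members Cgn and Cgnl1, the junctional adhesion molecules F11r, Jam2 and Jam3, the claudin Cldn15 and the scaffolds Magi1 and Magi3. They were read by every probe set that the annotation of the mouse genome 430 2.0 array assigns to 1 of these genes alone. These 9 of the 18193 genes with a probe set of their own had 26 of the 45101 probe sets on the array, of which 18 passed a filter on dim signals and were tested, while 8 lay under it and are given as signals only. Expression was measured on 6 arrays, 3 of Slc39a13-KO and 3 of wild-type chondrocytes. The KO cells came from mice in which a Neo cassette replaced several exons of the zinc transporter gene Slc39a13, made from targeted R1 ES cell clones and bred to homozygosity, so that the deletion is present in every cell type. The wild-type cells came from mice without the deletion, and no other allele or agent is named for either group. In both groups, cartilaginous rib cages of newborn mice were digested with collagenase and the cells passed through a strainer and cultured in medium with serum, with no sort described. The strain of these cells, the number of mice per array and whether the arrays of a group came from separate cultures are not given in the sources used here, so a p-value here covers only differences from array to array, possibly technical ones.

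Tight junctions seal neighboring cells at their apical border. Claudins form the paracellular seal or pores through it, while junctional adhesion molecules are immunoglobulin-like proteins that bind each other across the cell gap. On the cytoplasmic side, Tjp1 (ZO-1) and the MAGI proteins are PDZ scaffolds that hold these membrane proteins, and cingulin and paracingulin tie the scaffolds to actin and microtubules. In cells without tight junctions, such as fibroblasts, Tjp1 is known from cadherin-based contacts. Epithelia, endothelium and the mesothelium that lines the body cavities carry such junctions, whereas chondrocytes in cartilage are separated by matrix.

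The array readings behind each result are as follows. Signals are MAS5 intensities on a linear scale, and their median per array was 82.0 to 108 in KO and 80.7 to 88.4 in wild-type cells. Slc39a13 had signals of 100, 196 and 165 in KO cells, against 901, 1080 and 991 in wild-type cells, low wherever the label says KO, though the position of this probe set relative to the deletion is not given in the sources used here. The chondrocyte markers were bright, with a summed signal of 133296 to 181318 in KO and 95931 to 112572 in wild-type cells over 12 genes, led by the cartilage collagens Col2a1, Col9a1 and Col11a1 and the matrix protein Comp. KO replicate 1 stood apart, with correlations of 0.940 to 0.950 with the other arrays, against 0.960 to 0.980 among the other 5, across the 23309 tested probe sets. KO replicate 2 and wild-type replicate 3 had high Xist signals and the other 4 arrays low ones, so the sexes are mixed within both groups.

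The stretches of 250 bases before the transcription start are shown for Tjp1, Cgnl1, F11r and Cldn15, because these are the genes that fell in KO chondrocytes. They were taken from RefSeq (build GRCm38.p6), which gives the start of 1 transcript for each, and are written 5′ to 3′ on the strand of the gene. Capitals mark matches on either strand to any of 4 motifs, the E-box CAGGTG bound by Snail and Zeb factors, the AP-1 motif TGACTCA, the GC box GGGCGG and the TEAD motif GGAATG. No 2 matches overlapped.
Tjp1 (chr7:65371245-65371494, minus strand): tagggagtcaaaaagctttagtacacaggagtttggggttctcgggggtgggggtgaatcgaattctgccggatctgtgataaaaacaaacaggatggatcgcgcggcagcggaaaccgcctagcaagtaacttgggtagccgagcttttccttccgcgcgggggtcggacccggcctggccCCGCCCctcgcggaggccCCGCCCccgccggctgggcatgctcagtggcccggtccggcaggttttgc
Cgnl1 (chr9:71771603-71771852, minus strand): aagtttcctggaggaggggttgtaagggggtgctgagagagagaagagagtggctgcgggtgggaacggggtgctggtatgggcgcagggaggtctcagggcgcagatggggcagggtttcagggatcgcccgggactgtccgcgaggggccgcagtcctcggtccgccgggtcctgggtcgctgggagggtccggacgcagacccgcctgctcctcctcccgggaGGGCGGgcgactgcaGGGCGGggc
F11r (chr1:171437311-171437560, plus strand): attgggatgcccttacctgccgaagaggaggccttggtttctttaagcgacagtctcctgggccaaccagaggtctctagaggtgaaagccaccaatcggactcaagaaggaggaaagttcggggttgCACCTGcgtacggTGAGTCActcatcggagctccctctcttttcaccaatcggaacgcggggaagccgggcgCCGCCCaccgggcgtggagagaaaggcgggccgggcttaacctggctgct
Cldn15 (chr5:136967619-136967868, plus strand): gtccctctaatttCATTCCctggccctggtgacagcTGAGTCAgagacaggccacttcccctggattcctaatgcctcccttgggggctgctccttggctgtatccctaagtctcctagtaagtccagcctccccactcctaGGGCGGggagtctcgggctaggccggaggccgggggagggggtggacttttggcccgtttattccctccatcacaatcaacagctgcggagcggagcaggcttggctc

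F11r and Cldn15 each held 1 AP-1 motif, which begins 109 bases before the start in F11r and 214 bases before it in Cldn15. The AP-1 motif occurred in 4.46% of all 32851 promoters of the table. F11r also held an E-box, 122 bases before the start, which 17.2% of all promoters held. A promoter of Magi1, a gene with no probe set past the threshold, held an E-box as well, 36 bases before the start. The TEAD motif, found in 12.6% of all promoters, was present in Cldn15 alone among the 8 promoters found for 7 of the 9 genes. The promoters of Tjp1 and Cgnl1 held 2 GC boxes each and none of the other 3 motifs. The promoter of Magi3, the gene that rose, held 4 GC boxes and likewise none of the others, and that of Cgn held 6. A GC box was present in 7 of the 8 promoters, compared with 32.7% of all promoters. The promoter of Cldn15 was 60.8% G and C, those of Tjp1 and Cgnl1 were 63.2% and 70.8%, and the median of all promoters was 52.4%. Jam2 and Jam3 are without an entry in the table used.

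In Slc39a13-KO chondrocytes, Tjp1, Cgnl1, F11r and Cldn15 were lower than in wild-type chondrocytes and Magi3 was higher, each on the brightest probe set of its gene. Tjp1 and Cgnl1 were 1.66- and 1.61-fold lower, Cldn15 was 2.24-fold lower and F11r 4.62-fold lower, while Magi3 was 1.5-fold higher. Jam2, Jam3 and Magi1 had no probe set past the threshold, and neither probe set of Cgn was bright enough to be tested. Log2(signal + 7.96) was compared with limma, KO minus wild type, and p-values were adjusted by Benjamini-Hochberg over all tested probe sets with a threshold of 0.05. These folds are differences of mean log2 values, in which the added 7.96 pulls the values of dim probe sets toward each other, and they are not ratios of the mean signals, which differed 4.16-fold for F11r. Of the 18 tested probe sets, 4 were lower (22.2%) and 1 was higher (5.56%), compared with 3.36% lower and 3.44% higher, or 6.8% in all, among the 23309 tested probe sets. The members and the gene lists further on were chosen with earlier results of these data known. Their shares are therefore a description only. The KO and wild-type arrays did not overlap on 6 of the 18, with KO below on 4 and above on 2, against 28.8% of all tested probe sets, 13.7% with KO below and 15.1% with KO above. All 5 were the brightest of their genes, and none of the 10 tested probe sets that were not the brightest passed. At an unadjusted p under 0.05 there were likewise 5 of 18, against 22.6% of all tested probe sets, so nothing is read from that count. The median log2 difference was -0.13 over the 18 and 0.01 over all tested probe sets.

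**Figure D1:**
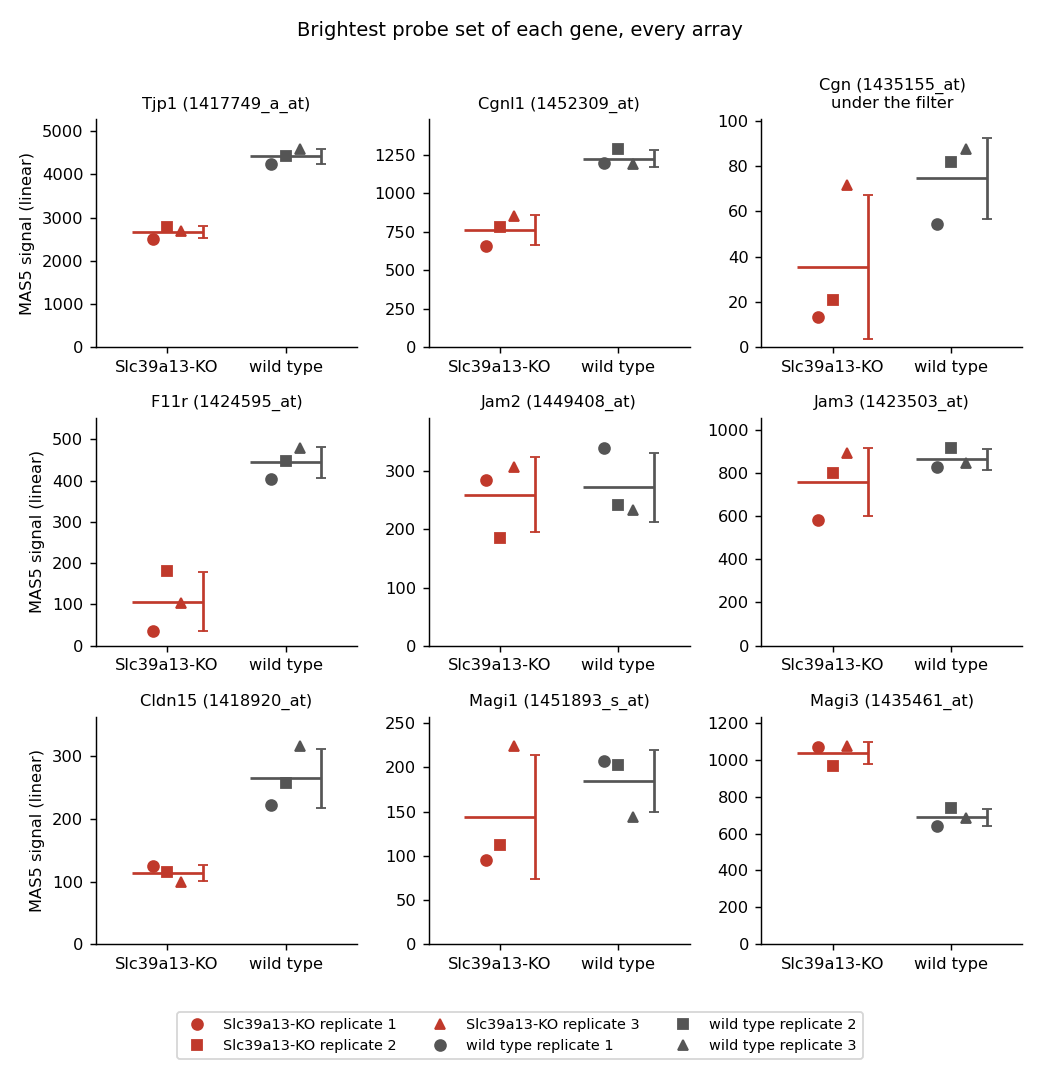
MAS5 signal (linear axis from 0) of the brightest probe set of each of the 9 genes in Slc39a13-KO (red) and wild-type (gray) chondrocytes. Points are arrays, horizontal lines are means and bars the SD of 3 arrays. Every KO point is lower than every wild-type point for Tjp1, Cgnl1, F11r and Cldn15 and higher for Magi3, and the groups overlap for Cgn, Jam2, Jam3 and Magi1.

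Among the scaffolds, Tjp1, which links claudins and junctional adhesion molecules to actin, had signals of 2502, 2786 and 2689 in KO chondrocytes, against 4231, 4429 and 4590 in wild-type chondrocytes. Every KO array lay well below every wild-type array, and the arrays within a group were close to each other. The means were 2659 ± 144 in KO and 4416 ± 179.9 in wild-type cells (SD, n = 3 each). The log2 difference was -0.73 (standard error 0.08, 95% interval -0.91 to -0.56, adjusted p = 0.00131 from limma). Only 59 of the 23309 tested probe sets had a lower p. Tjp1 has 1 probe set on the array, of a kind that can bind several transcripts of the same gene, so its transcript forms cannot be told apart. It stayed past the threshold without any single array, with adjusted p up to 0.0137. It did not pass in limma without its trend (adjusted p = 0.0535) or in the methods' t-test on the same values (adjusted p = 0.0505).

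Cgnl1 encodes paracingulin, a relative of cingulin at tight and adherens junctions. Its brightest probe set (1452309_at) had signals of 656, 779 and 852 in KO chondrocytes, against 1196, 1289 and 1189 in wild-type chondrocytes. The KO arrays were all below the wild-type arrays, and KO replicate 1 was the lowest. The log2 difference was -0.69 (standard error 0.11, 95% interval -0.94 to -0.43, adjusted p = 0.00840 from limma). The second probe set (1421158_at) had 224, 344 and 229 in KO and 214, 316 and 206 in wild-type cells, with replicate 2 the highest in both groups and the groups overlapping. Its log2 difference was 0.11, with a 95% interval of -0.40 to 0.62 that does not reach the value of the brightest probe set. The other tested probe sets had log2 differences of 0.29 (1448052_at) and -0.19 (1443861_at), with adjusted p = 0.680 and 0.812, and wide intervals that include -0.69 for the dimmer of them alone. The fifth (1421159_at) lay under the filter, with signals of 6.96 to 68.0 in KO and 7.02 to 76.6 in wild-type cells. The fall of Cgnl1 was thus measured by 1 of its 5 probe sets, and which part of the transcript each of them detects is not given in the files. Without wild-type replicate 2 it did not pass (log2 difference -0.65, adjusted p = 0.0579), nor with arrays centred on their medians (-0.78, adjusted p = 0.0715).

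Cgn encodes cingulin, the founding member of that family, which is found mainly in epithelia. Both of its probe sets were dim. The brighter (1435155_at) had signals of 13.4, 20.7 and 71.8 in KO cells, against 54.2, 81.8 and 87.6 in wild-type cells. KO replicate 3 lay among the wild-type arrays, so the groups overlapped. Its mean fell just under the filter level, which corresponds to a signal of 47.8, and in the fit without the filter its log2 difference was -1.15 with a 95% interval of -2.41 to 0.11. The dimmer probe set (1430329_at) had 17.5, 43.3 and 10.5 in KO and 37.6, 2.10 and 10 in wild-type cells, with no separation of the groups.

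Magi3, a MAGI scaffold with PDZ and WW domains, was the member that rose. Its brightest probe set (1435461_at) had signals of 1069, 965 and 1073 in KO chondrocytes, against 642, 736 and 686 in wild-type chondrocytes. All KO arrays were above all wild-type arrays, and the means were 1036 ± 60.9 in KO and 688 ± 46.9 in wild-type cells (SD, n = 3 each). The log2 difference was 0.58 (standard error 0.10, 95% interval 0.36 to 0.81, adjusted p = 0.0102 from limma). A second probe set (1421035_a_at) had 316, 188 and 285 in KO and 165, 198 and 189 in wild-type cells. On it KO replicates 1 and 3 were above the wild-type arrays and KO replicate 2 was among them, with a log2 difference of 0.47 (95% interval -0.02 to 0.96, adjusted p = 0.240). The third (1450101_a_at) had 180, 64.0 and 134 in KO and 114, 102 and 130 in wild-type cells, a log2 difference of 0.02 (95% interval -0.78 to 0.82). Magi3 did not pass without wild-type replicate 1 (adjusted p = 0.0556) or with arrays centred on their medians, of which that of KO replicate 1 is the highest (log2 difference 0.49, adjusted p = 0.193).

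Magi1, the paralog of Magi3 that is found at tight and adherens junctions, did not pass on any of its 3 tested probe sets, and these differed in sign. The brightest (1451893_s_at) had signals of 95.7, 112 and 224 in KO and 207, 203 and 144 in wild-type cells. KO replicate 3 was the highest of all 6 arrays and wild-type replicate 3 the lowest of its group, so the groups overlapped, with a log2 difference of -0.42 (95% interval -1.13 to 0.29). Its name ends in s_at, which marks probe sets that may bind transcripts of several genes. The next (1452369_at) had a log2 difference of 0.37 (95% interval -0.54 to 1.28). The third (1440071_at) had 85.3, 56.8 and 58.1 in KO, against 51.0, 22.3 and 39.1 in wild-type cells. Here the KO arrays were above the wild-type arrays, but the log2 difference of 0.75 had a 95% interval of -0.29 to 1.79 (adjusted p = 0.377 from limma), and such dim signals vary more than bright ones. The other 2 probe sets of Magi1 lay under the filter, with signals of 8.84 to 81.1 in KO and 16.7 to 64.2 in wild-type cells.

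Among the junctional adhesion molecules, F11r had the largest change of the 9 genes. F11r encodes JAM-A, which is found in epithelium, endothelium, platelets and leukocytes. Its brightest probe set (1424595_at) had signals of 36.2, 180 and 104 in KO chondrocytes, against 405, 447 and 480 in wild-type chondrocytes. The wild-type arrays were close together, whereas the KO arrays were spread widely, and KO replicate 1, the array that stood apart, was the lowest and under the filter level. The means were 107 ± 71.9 in KO and 444 ± 37.5 in wild-type cells (SD, n = 3 each), and the log2 difference was -2.21 (standard error 0.43, 95% interval -3.16 to -1.26, adjusted p = 0.0155 from limma). Without KO replicate 1 the log2 difference was -1.64 (standard error 0.22, adjusted p = 0.00464). All of the other 4 genes also passed without this array. F11r did not pass without wild-type replicate 1, 2 or 3 (adjusted p = 0.0604, 0.0742 and 0.0639), nor in limma without its trend (0.108) or in the methods' t-test (adjusted p = 0.195).
The other probe set of F11r (1436374_x_at) is of a kind that may bind other transcripts as well. It had 71.1, 53.0 and 32.9 in KO and 88.9, 44.5 and 62.6 in wild-type cells, with overlapping groups. Its log2 difference was -0.29 with a 95% interval of -1.29 to 0.71, which reaches down to the upper end of the interval of the brighter probe set.

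Jam2 and Jam3, which encode JAM-B and JAM-C, a pair known to bind each other between endothelial cells, did not pass. The brightest probe set of Jam2 (1449408_at) had signals of 285, 186 and 308 in KO and 341, 242 and 234 in wild-type cells. The groups overlapped fully, and the log2 difference was -0.08 with a 95% interval of -0.59 to 0.44. The next 2 probe sets of Jam2 had log2 differences of -0.41 (1419288_at, 95% interval -0.95 to 0.13) and 0.10 (1436568_at, -0.57 to 0.77). Under the filter, 1431417_at had 8.41, 37.6 and 18.2 in KO, against 74.9, 48.7 and 62.1 in wild-type cells. There the KO arrays were below the wild-type arrays, and the fit without the filter gave a log2 difference of -1.36 (95% interval -2.54 to -0.18, adjusted p = 0.215 from limma over 34945 probe sets), which did not pass. The last (1431416_a_at) ranged from 7.35 to 72.6 in KO and from 8.84 to 76.9 in wild-type cells.
Jam3 had signals of 584, 801 and 891 in KO and 825, 917 and 848 in wild-type cells on its brighter probe set (1423503_at). KO replicate 1 was the lowest of the 6 arrays and KO replicate 3 lay among the wild-type arrays. The log2 difference was -0.20 with a 95% interval of -0.54 to 0.13, so a fall of the size of that of Tjp1 lies outside it. The dimmer probe set of Jam3 (1423504_at), under the filter, had 66.3, 37.6 and 38.6 in KO and 81.3, 2.84 and 33.4 in wild-type cells.

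**Figure D2:**
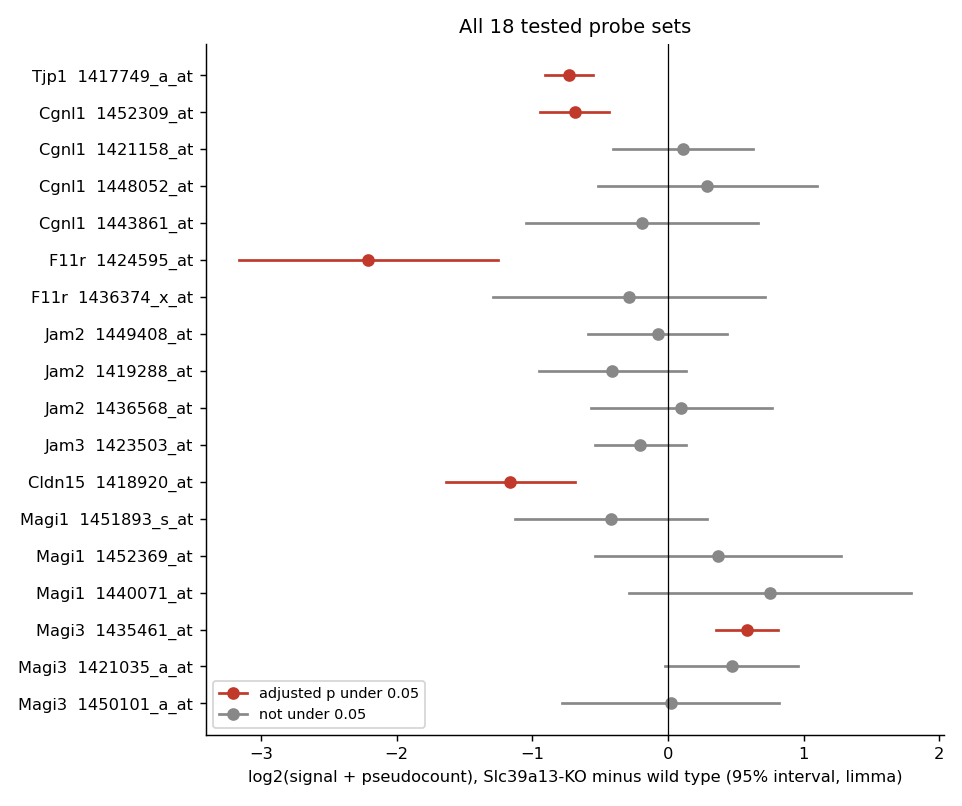
Log2 difference, Slc39a13-KO minus wild type, with its 95% interval from limma for the 18 tested probe sets, by gene and then by brightness. Red marks adjusted p under 0.05 and gray the rest. The 5 red intervals belong to the brightest probe set of Tjp1 (-0.73), Cgnl1 (-0.69), F11r (-2.21), Cldn15 (-1.16) and Magi3 (0.58).

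The claudin Cldn15 forms cation pores in the small intestine and is also counted among genes of mesothelial cells. Its only probe set had signals of 125, 116 and 99.1 in KO chondrocytes, against 223, 257 and 316 in wild-type chondrocytes. The lowest wild-type array was above the highest KO array, and wild-type replicate 3 was the highest. The means were 113 ± 13.1 in KO and 265 ± 46.7 in wild-type cells (SD, n = 3 each), with a log2 difference of -1.16 (standard error 0.21, 95% interval -1.64 to -0.69, adjusted p = 0.0120 from limma). It did not pass without wild-type replicate 2 (adjusted p = 0.0714) or 3 (log2 difference -1.04, adjusted p = 0.0781), and the call was kept without each other array.

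The other genes of tight junctions and of the polarity complexes beside them were read from a list of 74 genes, of which 38 had a tested probe set. Of their 70 tested probe sets, 4 were lower (5.71%) and 2 were higher (2.86%), near the shares of all tested probe sets. Their median log2 difference was -0.01. Clmp and Cxadr, close relatives in the immunoglobulin family, passed in opposite directions. Cxadr, the coxsackievirus and adenovirus receptor found at epithelial tight junctions, had 297, 237 and 280 in KO, against 482, 451 and 723 in wild-type cells on its brightest probe set (log2 difference -0.98, adjusted p = 0.0160 from limma). A dimmer probe set of Cxadr also fell (-1.42), and 2 others had -0.87 and -0.49 and did not pass. Clmp, an adhesion protein of the same family, had 1256, 1339 and 1203 in KO, against 842, 990 and 845 in wild-type cells (0.50, adjusted p = 0.0187), and its second probe set also rose (0.53).
The plaque proteins Cd2ap and Amot passed on 1 of 3 tested probe sets each. Cd2ap, an adaptor protein linked to actin, had -0.77 on that probe set (adjusted p = 0.0282), and -0.46 and -0.37 on the others, its brightest included, which did not pass. Amot, which binds Yap and the polarity protein Patj, had -0.45 (adjusted p = 0.0450). Among the claudins other than Cldn15, 7 genes with 10 probe sets were tested and 0 passed by limma, with 1 at an unadjusted p under 0.05. The brightest was Cldn12, with a signal of 2281 ± 337 in KO and 2471 ± 57.4 in wild-type cells (SD, n = 3 each). All 6 probe sets of the MARVEL genes Ocln, Marveld2 and Marveld3, which encode occludin and its relatives, were under the filter. Of the 25 tested probe sets of 14 polarity genes, 0 passed by limma and 2 had an unadjusted p under 0.05.

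Markers of mesothelial cells were lower on the same KO arrays. Of 20 tested probe sets in a list of 15 mesothelial genes from which Cldn15 was left out, 17 fell (85.0%) and 0 rose, and their median log2 difference was -2.64. The summed signal of the list was 1039 to 1744 in KO and 6238 to 10130 in wild-type cells. The keratin genes Krt18, Krt8 and Krt7 and the uroplakin gene Upk1b were the brightest, and Krt18 had 228, 241 and 144 in KO, against 807, 830 and 1184 in wild-type cells. Like Cldn15, the mesothelial sum was highest on wild-type replicate 3 and lowest on KO replicate 3. F11r was highest on wild-type replicate 3 and, among the KO arrays, lowest on replicate 1. The mesothelial sum of KO replicate 1 was the highest of its group. Tjp1 was highest on wild-type replicate 3 and lowest on KO replicate 1. Cgnl1 was highest on wild-type replicate 2. The mesothelial sums of wild-type replicates 1 and 2 were nearly equal (6238 and 6244). With 3 arrays per group, these orders are a description only. The part of this cell type in the differences of the 9 genes was not tested, and in such bulk cultures fewer cells of a type and less RNA per cell cannot be told apart.
Epithelial markers other than these had a summed signal of 581 to 794 in KO and 821 to 1101 in wild-type cells. Of their 5 tested probe sets 2 were lower, both of Krt14. The brightest Krt14 probe set had 137, 32.5 and 75.9 in KO, against 399, 361 and 729 in wild-type cells. Without Krt14, the other genes of the list together were higher in KO, though Krt5 was lower and did not pass (log2 difference -0.50). Only 4 of the 9 genes had a tested probe set, so dim signals add to these sums. Epcam, a marker of many epithelia, had 22.4, 11 and 20.3 in KO and 13.3, 29.3 and 23.6 in wild-type cells on a probe set under the filter. A second Epcam probe set, of the kind that may bind other transcripts, had 226 ± 59.4 in KO and 169 ± 45.4 in wild-type cells (SD, n = 3 each) and did not pass. The endothelial list had a summed signal of 588 to 886 in KO and 587 to 692 in wild-type cells, and 1 of its 6 tested probe sets rose. Only 3 of its 10 genes had a tested probe set, and Pecam1, Cdh5, Tie1, Tek and Emcn were under the filter throughout. The sum of 886 was that of KO replicate 1, the array with the highest median signal. The sum is thus a poor measure of endothelial cells. The macrophage list, whose cells also carry F11r, had 573 to 868 in KO and 631 to 834 in wild-type cells. Of its 7 tested probe sets, 0 passed the threshold by limma. An unadjusted p under 0.05 was found for 2, against 22.6% of all tested probe sets. These were Cd14, which was lower (log2 difference -1.55), and Lyz2, which was higher (1.05). The skeletal muscle list had 2270 to 2696 in KO and 2076 to 2096 in wild-type cells. Of its 7 tested probe sets 1 was higher (Tnnt3, log2 difference 1.17) and 1 was lower (Acta1, -0.72). Tnnt3 had 1845, 1620 and 1343 in KO, against 606, 712 and 804 in wild-type cells. The other genes of that list together were lower in KO. The chondrocyte list had 7 higher (33.3%) and 1 lower (4.76%) of 21 tested probe sets, against 3.44% and 3.36% of all tested probe sets. The 7 belonged to 5 genes, and the lower one to Col9a3 (log2 difference -0.50). Col2a1, the brightest gene of that list, did not pass (0.50, adjusted p = 0.0981 from limma).

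**Figure D3:**
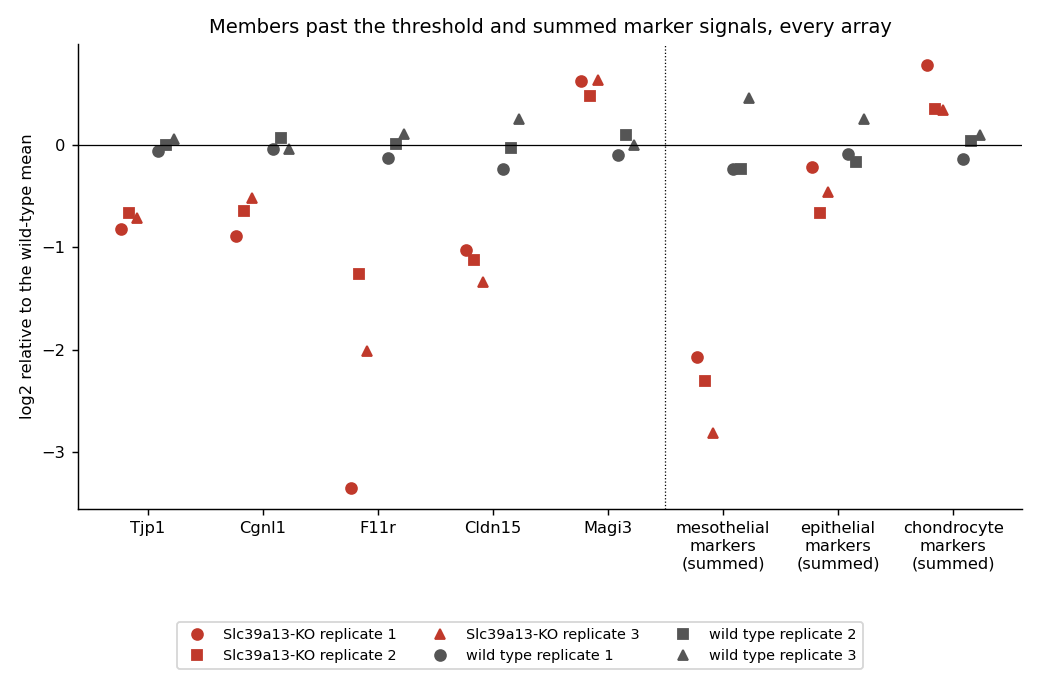
Log2 value relative to the wild-type mean for the 5 genes past the threshold (log2(signal + 7.96), brightest probe set) and for the summed signals of 3 marker lists, by array. Red marks Slc39a13-KO and gray wild-type chondrocytes, with a symbol for each replicate number. The KO arrays lie between -2.82 and -2.07 for the mesothelial sum and between -3.35 and -1.26 for F11r, and the chondrocyte sum lies above 0 on all 3 KO arrays (0.34 to 0.78).

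The genes most like each changed member were found by Pearson correlation over the 6 arrays, with each gene at its brightest tested probe set. A difference between the groups adds to r, so the values are a description only, and Cdc73, Decr1 and Cnn3 among the genes named did not pass the threshold themselves. Tjp1 was closest to Parp12, an ADP-ribosyltransferase gene (r = 0.9975), and to Cox6b2, a cytochrome c oxidase subunit gene (r = 0.9974). Cgnl1 was closest to D5Ertd579e (r = 0.9994) and Rab7b, a Rab GTPase gene (r = 0.998). F11r was closest to Cdc73 (r = 0.9978) and Decr1 (r = 0.997), both of which are also lowest on KO replicate 1. Cldn15 was closest to the transcription factor gene Klf5 (r = 0.998), which had 919, 880 and 827 in KO, against 1295, 1373 and 1495 in wild-type cells, and to the calponin gene Cnn3 (r = 0.9974). Magi3 was closest to Tti1 (r = 0.9965) and to the amino acid transporter gene Slc38a1 (r = 0.9952). Among the members, Tjp1 had r of 0.9653, 0.9612 and 0.9277 with Cgnl1, Cldn15 and F11r, and -0.9628 with Magi3.

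**Figure D4:**
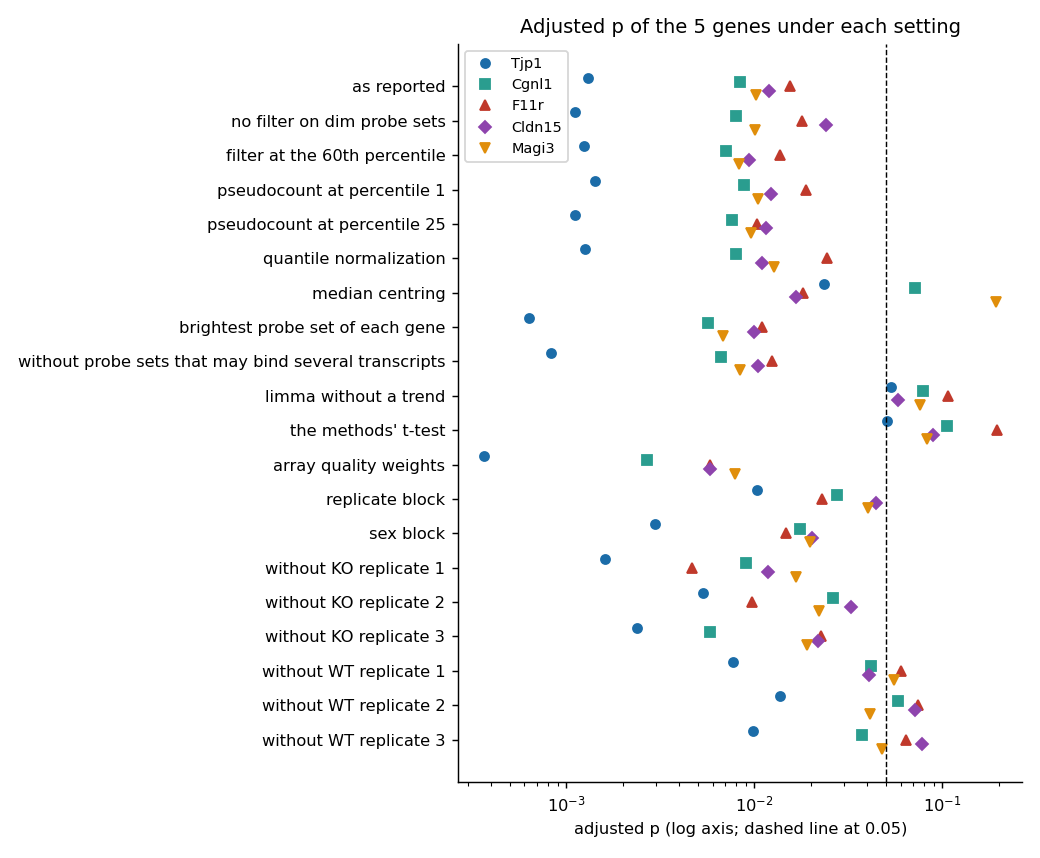
Adjusted p (log axis) of the brightest probe set of Tjp1, Cgnl1, F11r, Cldn15 and Magi3 as reported and under 19 alternative settings, with a dashed line at 0.05. Without a trend in limma and with the methods' t-test, the 5 genes lie right of the line (0.0505 to 0.195), and in both rows Tjp1 lies closest to it.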

How the data were processed

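Gene expression was measured in primary rib chondrocytes on 6 Affymetrix mouse genome arrays, 3 per group. The deposited intensities were made by the authors with MAS5 per the labels, while their methods name gcRMA. The values are linear and each array has a mean of 500.003 after trimming 2% of probe sets at both ends, whereas their quantiles are unequal, so they were used as MAS5 signals and as the authors scaled them. The files give no detection calls, and the number of arrays limits the precision.

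The array annotation gives 34958 probe sets 1 gene symbol, of which 34754 matched a RefSeq mouse gene table by Entrez identifier. Those annotated to more than 1 gene or to none, and control spots, were not used. Values were taken as log2(signal + 7.96), with the pseudocount set at the 10th percentile of the signals. A filter on dim signals, at the 40th percentile of mean log2 values (5.80), kept 23309. KO minus wild type was estimated by lmFit and by eBayes with an intensity trend (limma 3.58.1, R 4.3.3) without covariates, with Benjamini-Hochberg adjustment over these probe sets. Simulated signals with known changes were used to test the scripts. The members, gene lists and motifs were chosen with earlier results of these data known. All members are named, together with the list genes of largest change past the threshold, the brightest marker genes and the 2 genes most correlated with each changed member. Protein sequences of the members are not analysed here.

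Alternatives changed 1 choice at a time. They were the filter, pseudocount, scaling, choice of probe sets, limma's trend, the methods' t-test (two-tailed), array weights, a replicate block, a sex block and each array left out.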

Additional observations from a re-analysis of the deposited data

How the results depend on the processing

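The differences of the 5 genes past the threshold kept their direction under all 19 alternatives, and none of the other 13 tested probe sets passed under any of those in which it was tested. The counts of 4 lower and 1 higher probe set were both 0 in limma without its trend and with the methods' t-test (5 probe sets had an unadjusted p under 0.05 in the reported fit), where the number of all probe sets called was 108 and 84, against 1586 in the reported fit. With median centring, which shifts the median log2 difference of all tested probe sets to -0.08, the number higher was 0, the calls over all probe sets were 390, and 33.6% of these were higher, against 50.6%. With each array left out in turn, 1 to 4 member probe sets were lower and 0 to 1 higher, and 434 to 2276 probe sets were called in all. The lowest of these came without wild-type replicate 2. Deviations from the group mean correlated at 0.0328, 0.0145 and -0.0536 between arrays with the same replicate number. Arrays with different numbers had r of -0.0571 to 0.0434, so no pairs by number were visible. With so few arrays per group these values cannot exclude pairs, and what the replicate numbers stand for is not given in the sources used here. With the number as a replicate block 837 probe sets were called in all, with 4 member probe sets lower and 1 higher. The cause of these changes was not tested. Dim signals limit the reading of the 8 member probe sets under the filter, Cgn among them. The sizes of the falls of F11r and Cldn15 also rest on dim KO signals (36.2 to 180 and 99.1 to 125).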

Other observations

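The annotated neighbors of the 8 genes with a tested probe set were also read, in the gene order of RefSeq (GRCm38.p6) and with 5 tested genes on each side, after the values of the members had been seen. None of the 10 neighbors of Tjp1 or of Magi3 passed at the threshold by limma, and the neighbors of F11r had 1 higher and none lower, with log2 differences of -0.22 to 0.35. Of the 10 neighbors of Cgnl1, 1 was lower. This was Aldh1a2, which encodes a retinoic acid synthesizing enzyme and is in the list of mesothelial markers, with signals of 85.7, 93.2 and 35.1 in KO, against 221, 228 and 346 in wild-type cells (log2 difference -1.85). Of the 10 neighbors of Jam2, 1 was lower, which was Cxadr. Jam3, Cldn15 and Magi1 had 1 higher neighbor and no lower one each. Of all tested probe sets 3.36% were lower and 3.44% higher, so nothing is read from these few calls.

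Esam, an immunoglobulin protein of endothelial tight junctions named here after its values were seen, lay under the filter. It had signals of 38.5, 5.02 and 7.08 in KO, against 106, 78.0 and 148 in wild-type cells, with no overlap of the groups. KO replicates 2 and 3 lay under the added 7.96. Among the tested probe sets 28.8% did not overlap either, and the share among those under the filter was not counted. Esam is also in the endothelial list, where it was not tested.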
